A study of Mus musculus with 6 samples.

Results

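The simple epithelial keratins Krt7, Krt8, Krt18 and Krt19 and the desmosomal plaque genes Dsp, Jup and Pkp2 were followed on 6 Affymetrix arrays of mouse pluripotent stem cells. A member was every probe set whose platform annotation gave 1 gene symbol, equal to 1 of these 7 names. Each gene had 1 such probe set, so that 7 of the 23344 probe sets, and 7 of the 20746 with 1 symbol, were members. The genes were chosen with their difference between the groups known. Their differences are therefore given as descriptions, without a test.

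Of the 6 arrays, 3 held induced pluripotent stem (iPS) cells and 3 held ntES cells, which are embryonic stem cells derived after transfer of a nucleus. Both groups came from tail-tip fibroblasts of G3 Terc-/- mice, which lack the RNA template of telomerase, so that no array held cells with Terc. All cultures grew on mouse embryonic fibroblast feeders arrested with mitomycin C, and no label states that feeders were removed before total RNA was taken. The labels call the 3 arrays of a group biological repeats of a cell line and do not say how many lines there were. Where a group holds a single line, that line and the way of reprogramming cannot be told apart. The reprogramming factors and the age of the mice were not among the labels used.

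Keratins are the intermediate filament proteins of epithelial cells. A filament is built from pairs of 1 type II and 1 type I keratin; Krt7 and Krt8 are type II, and Krt18 and Krt19 are type I. Krt8 and Krt18 are the pair of simple, single-layered epithelia and appear with the first epithelium of the mouse embryo, the trophectoderm. At desmosomes, desmoplakin (Dsp) ties the filaments to the plaque proteins plakoglobin (Jup) and plakophilin (Pkp2), which hold the desmosomal cadherins. In cultures of pluripotent cells these keratins are used as signs of cells that take on an epithelial fate.

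Krt8 and Krt18 lie on chromosome 15 with no measured gene between them in RefSeq gene order, and moved together from array to array. Their promoters are shown for that reason, 5′ to 3′ on the strand of the gene, from 250 bases before to 50 bases after the RefSeq start (GRCm38.p6, chr15:102004293-102004592 on the minus strand for Krt8 and chr15:102027966-102028265 on the plus strand for Krt18). Capitals mark matches to any of 6 short motifs that were searched on both strands.
Krt8: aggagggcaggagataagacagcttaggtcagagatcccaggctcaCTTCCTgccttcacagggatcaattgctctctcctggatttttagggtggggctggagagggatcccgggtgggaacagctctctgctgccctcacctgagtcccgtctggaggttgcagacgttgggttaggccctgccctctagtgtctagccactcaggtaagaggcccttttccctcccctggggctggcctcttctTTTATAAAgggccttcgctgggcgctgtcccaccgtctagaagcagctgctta
Krt18: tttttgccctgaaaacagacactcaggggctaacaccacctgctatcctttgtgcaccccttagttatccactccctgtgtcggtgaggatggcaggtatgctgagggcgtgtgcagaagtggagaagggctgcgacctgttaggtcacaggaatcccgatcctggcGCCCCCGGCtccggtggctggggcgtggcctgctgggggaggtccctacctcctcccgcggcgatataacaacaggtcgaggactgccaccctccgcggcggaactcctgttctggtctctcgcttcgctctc

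The motifs were TATAAA (the TATA box), GGGCGG (the GC box bound by Sp factors), TGANTCA (AP-1), GCCNNNGGC (AP-2), AACCNGTT (grainyhead factors) and AGGAAG (ETS factors). The Krt8 window held AGGAAG on the opposite strand, 204 bases before the start, and TATAAA on both strands in overlapping letters, beginning 1 and 3 bases before the start. The Krt18 window held only GCCNNNGGC, 83 bases before the start. Krt8 and Krt18 shared none of the 6 motifs in these windows. Of all 32851 promoter windows of this length, 13.6% held TATAAA, 35.7% GGGCGG, 7.81% TGANTCA, 16.6% GCCNNNGGC, 2.09% AACCNGTT and 35.4% AGGAAG. Windows of 5 of the 7 members were in the RefSeq table. Those of Krt7, Dsp and Jup held GGGCGG at 4, 4 and 2 places, GCCNNNGGC was found in Krt7 and Dsp, and none of the 5 windows held TGANTCA or AACCNGTT. A match is a run of letters and not a shown binding site.

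The deposited values were on a log2 scale, on which a difference of 1 is a 2-fold change, and ran from 3.61 to 13.66. Values of different probe sets cannot be set against each other, since probes differ in brightness, so each gene is compared only with itself. The table holds no detection calls, and the median probe set, at 7.66, serves only as a landmark. Array medians lay between 7.61 and 7.70, and the SD of all values was smallest, 1.51, for ntES replicate 1 and largest, 1.74, for ntES replicate 3. Arrays of 1 group correlated at 0.994 to 0.998 over probe sets. The pluripotency factors Pou5f1, Sox2 and Nanog read 11.72, 11.57 and 12.34 in iPS cells and 11.55, 11.36 and 12.22 in ntES cells, above the median probe set in both groups. Their differences did not pass (adjusted p 0.389, 0.344 and 0.558, limma), but all 3 passed as lower in ntES cells with array weights or after quantile normalization.

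Krt8 and Krt18, the defining pair of simple epithelia, had the largest differences of the members. Krt8 read 8.29, 8.31 and 8.30 on the 3 iPS arrays and 9.74, 9.86 and 10.12 on the 3 ntES arrays. Krt18 read 8.19, 8.21 and 8.20 in iPS cells and 9.72, 9.87 and 10.09 in ntES cells. All 3 ntES arrays thus lay far above all 3 iPS arrays for both genes, with a gap of 1.43 for Krt8 and of 1.51 for Krt18 between the lowest ntES and the highest iPS value. The difference, ntES minus iPS, was 1.60 ± 0.10 for Krt8 and 1.69 ± 0.10 for Krt18 (log2, SE, n = 3 each), or 3.04-fold and 3.23-fold higher in ntES cells. Over all probe sets 137 differed at least 2-fold, and Krt18 and Krt8 stood at ranks 22 and 30 among the differences towards ntES cells.

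**Figure D1:**
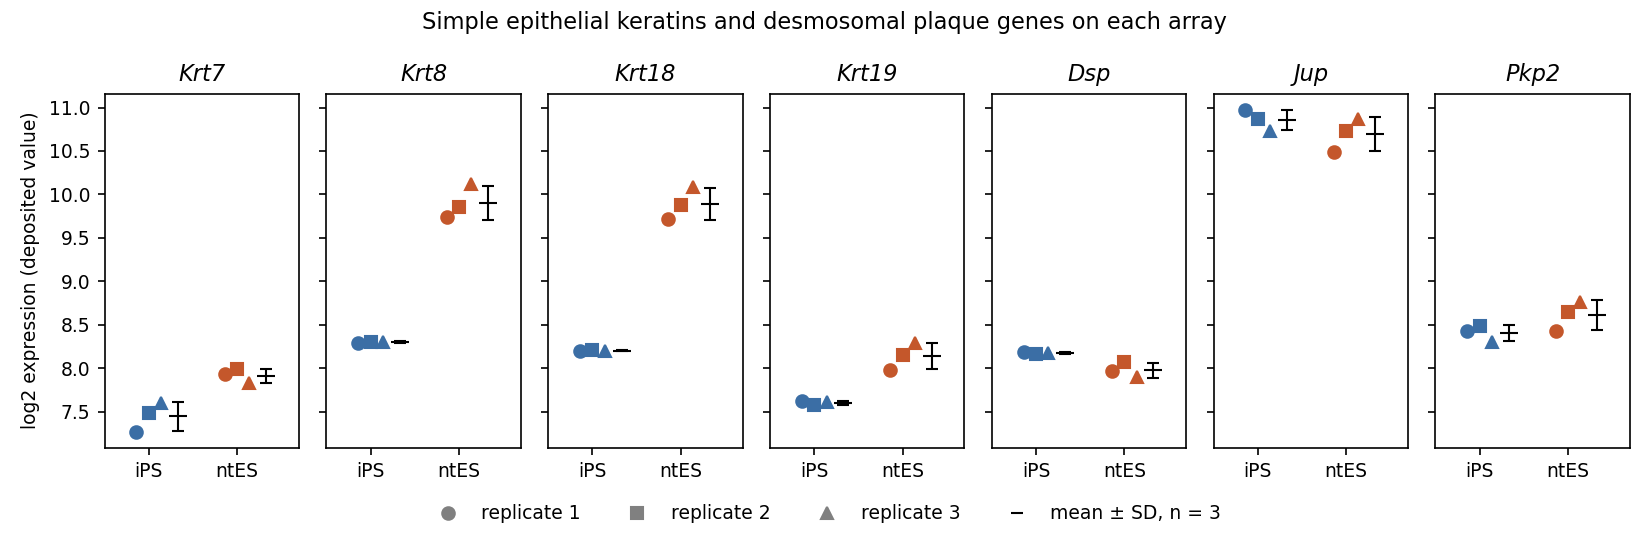
Deposited log2 expression of the 7 members on each array (vertical axis), with iPS cells in blue and ntES cells in orange, 1 marker shape per replicate, and the mean ± SD (n = 3) beside the points. Krt8 and Krt18 lie at 8.19 to 8.31 on the iPS arrays and at 9.72 to 10.12 on the ntES arrays, while Jup and Pkp2 overlap between the groups; heights of different genes cannot be compared.

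The other simple keratins among the members differed by less, in the same direction. Krt19, which lacks the tail domain of other keratins and is found in ducts and in endodermal and trophoblast epithelia, read 7.62, 7.57 and 7.61 in iPS cells and 7.98, 8.16 and 8.29 in ntES cells. Krt7, the partner of glandular and trophoblast epithelia, read 7.27, 7.48 and 7.59 in iPS cells and 7.93, 7.99 and 7.83 in ntES cells. Neither gene's groups overlapped, with gaps of 0.36 and 0.23. Krt19 was higher in ntES cells by 0.54 ± 0.09, or 1.46-fold, and Krt7 by 0.47 ± 0.10, or 1.38-fold (log2, SE, n = 3 each). In iPS cells Krt19 and Krt7 read at or below the median probe set of 7.66.

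The plaque genes differed by less and not all in 1 direction: Dsp and Jup were lower in ntES cells, and Pkp2 was higher. Dsp read 8.18, 8.17 and 8.18 in iPS cells and 7.96, 8.07 and 7.90 in ntES cells. The lowest iPS value lay 0.096 above the highest ntES value, and the difference was -0.20 ± 0.08 (log2, SE), or 1.15-fold lower in ntES cells. Jup, the plaque protein that desmosomes share with adherens junctions, read 10.97, 10.87 and 10.73 in iPS cells and 10.49, 10.73 and 10.87 in ntES cells, and the groups overlapped. Pkp2, the most widely expressed plakophilin, read 8.42, 8.49 and 8.31 in iPS cells and 8.43, 8.64 and 8.77 in ntES cells, and the groups overlapped as well. Their differences were -0.16 ± 0.11 for Jup and 0.21 ± 0.10 for Pkp2. Leaving out ntES replicate 1, the array of narrowest spread, gave -0.06 for Jup and 0.30 for Pkp2. Leaving out ntES replicate 3 gave -0.25 and 0.13, and leaving out iPS replicate 1 gave -0.11 for Jup.

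In all, 5 members lay above 0 and 2 below, with a median difference of 0.47, beside a median of 0.04 over all probe sets. The groups did not overlap for 5 members, 4 higher and 1 lower in ntES cells, beside 13.6% and 12.9% of all probe sets (26.5% in either direction). By limma with Benjamini-Hochberg adjustment over all probe sets, 2643 probe sets had an adjusted p under 0.05 (11.3%), 1212 of them higher (5.19%) and 1431 lower (6.13%) in ntES cells. The 4 keratins were among those higher and no plaque gene was among those called; the genes were chosen on this contrast, so nothing is read from that count. Centring each array on its median gave 823 higher and 1911 lower over all probe sets. It left Krt8 at 1.55 and Krt18 at 1.63.

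Among the ntES arrays Krt8, Krt18, Krt19, Jup and Pkp2 deviated from their group means in a shared way, and Krt7 and Dsp did not. In iPS cells Krt8, Krt18 and Dsp varied little, with SDs of 0.0087, 0.0092 and 0.0081 over 3 arrays, where the median probe set had 0.087. Krt19 had 0.026, while Krt7, Jup and Pkp2 had 0.166, 0.12 and 0.093, above the median probe set. In ntES cells the SDs of Krt8, Krt18 and Dsp were 0.195, 0.183 and 0.086, where the median probe set had 0.137. On ntES replicate 1 Krt8, Krt18, Krt19, Jup and Pkp2 lay 0.16 to 0.21 below their group mean (-0.17, -0.17, -0.16, -0.21 and -0.18). On ntES replicate 3 they lay above it by 0.21, 0.19, 0.14, 0.17 and 0.15. These 2 arrays also had the smallest and the largest SD of all values. Krt7 and Dsp did not follow, at 0.015 and -0.015 on ntES replicate 1 and -0.087 and -0.077 on replicate 3. On iPS replicate 3, the iPS array of narrowest spread, Jup and Pkp2 lay at -0.13 and -0.10. Krt8, Krt18 and Krt19 lay there at 0.003, -6e-05 and 0.005.

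Quantile normalization, which gives all arrays 1 distribution, shrank the spread over ntES arrays for 5 members and not for the other two. The SD over ntES arrays went from 0.195 to 0.037 for Krt8, from 0.183 to 0.015 for Krt18, from 0.194 to 0.039 for Jup and from 0.171 to 0.062 for Pkp2, and from 0.137 to 0.062 for the median probe set. For Krt19 it went from 0.153 to 0.095, while it grew from 0.081 to 0.099 for Krt7 and from 0.086 to 0.103 for Dsp. The small SDs over iPS arrays grew as well, to 0.042 for Krt8, 0.034 for Krt18 and 0.032 for Dsp, where the median probe set went from 0.087 to 0.054. The correlation of deviations from the group means over the 6 arrays, given as a description, was 0.99 before and 0.92 after between Krt8 and Krt18. The 2 probe sets read at similar values, with Krt8 minus Krt18 between -0.02 and 0.10 on each array. A change of the array, or of the normalization, at that level would move both. The correlation therefore cannot tell a change shared by the genes from 1 of the array. Between Krt8 and Krt19 it went from 0.93 to -0.30, and between Jup and Pkp2 from 0.92 to -0.24. The differences between groups stayed near the deposited ones, at 1.63 for Krt8, 1.72 for Krt18, 0.50 for Krt19, 0.42 for Krt7, -0.20 for Dsp, -0.13 for Jup and 0.23 for Pkp2. After it the groups of all 7 members were apart, 5 higher and 2 lower, beside 43.9% of all probe sets (21.2% higher and 22.8% lower).

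**Figure D2:**
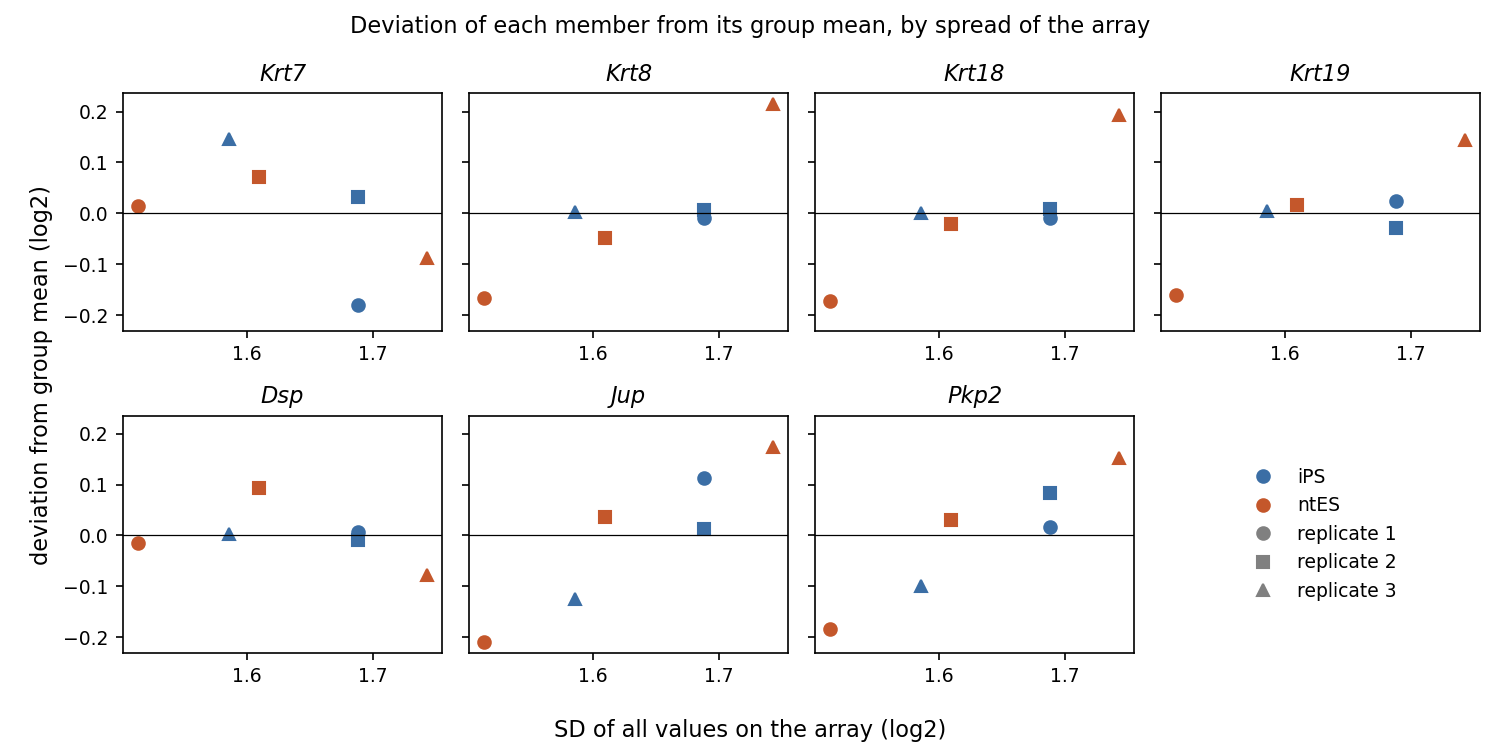
Deviation of each member from its group mean (log2, vertical axis) against the SD of all values on the same array (log2, horizontal axis), 1 point per array, iPS in blue and ntES in orange. Krt8, Krt18, Krt19, Jup and Pkp2 are lowest on ntES replicate 1 (SD 1.51) and highest on ntES replicate 3 (SD 1.74), while Krt7 and Dsp do not follow the spread.

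By rule, the genes most like the mean of Krt8 and Krt18 over the 6 arrays were sought among the 85 other probe sets at or above the median level with a 2-fold difference. They were Sync, Srgn, Klhl13, Obox6 and Zdbf2, with Pearson correlations of 0.999, 0.999, 0.999, 0.998 and 0.998. Sync is described with the other filament genes; Srgn encodes the proteoglycan serglycin, Klhl13 an adaptor of a ubiquitin ligase, Obox6 an oocyte homeobox protein, and Zdbf2 is an imprinted gene. Over 6 arrays in 2 groups, such a correlation is set mainly by the difference between the groups, which was 1.03, 2.91, 1.36, 3.20 and 2.20 for these genes.

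The remaining keratin genes, which form filaments of stratified epithelia, hair and nails for the most part, were not called alongside the members. Of 48 measured, none rose and none fell by limma's adjusted p over all probe sets, where 5.25% of 19308 genes rose and 6.16% fell. Counting unadjusted p-values under 0.05 gave 3 higher and none lower. Their differences ran from -0.08 to 0.30 with a median of 0.10, beside 0.04 over all genes, and 45 of the 48 read below the median probe set. The smallest p belonged to Krt86, a hair keratin, at 0.30 ± 0.11 (adjusted p = 0.123), and to Krt14, the basal keratin of stratified epithelium, at 0.24 ± 0.09 (adjusted p = 0.112). Without ntES replicate 3, 4 keratins passed as higher, and without iPS replicate 3, 1 did. With array weights 32 passed as higher and 1 as lower, and after quantile normalization 1 passed as lower.

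**Figure D3:**
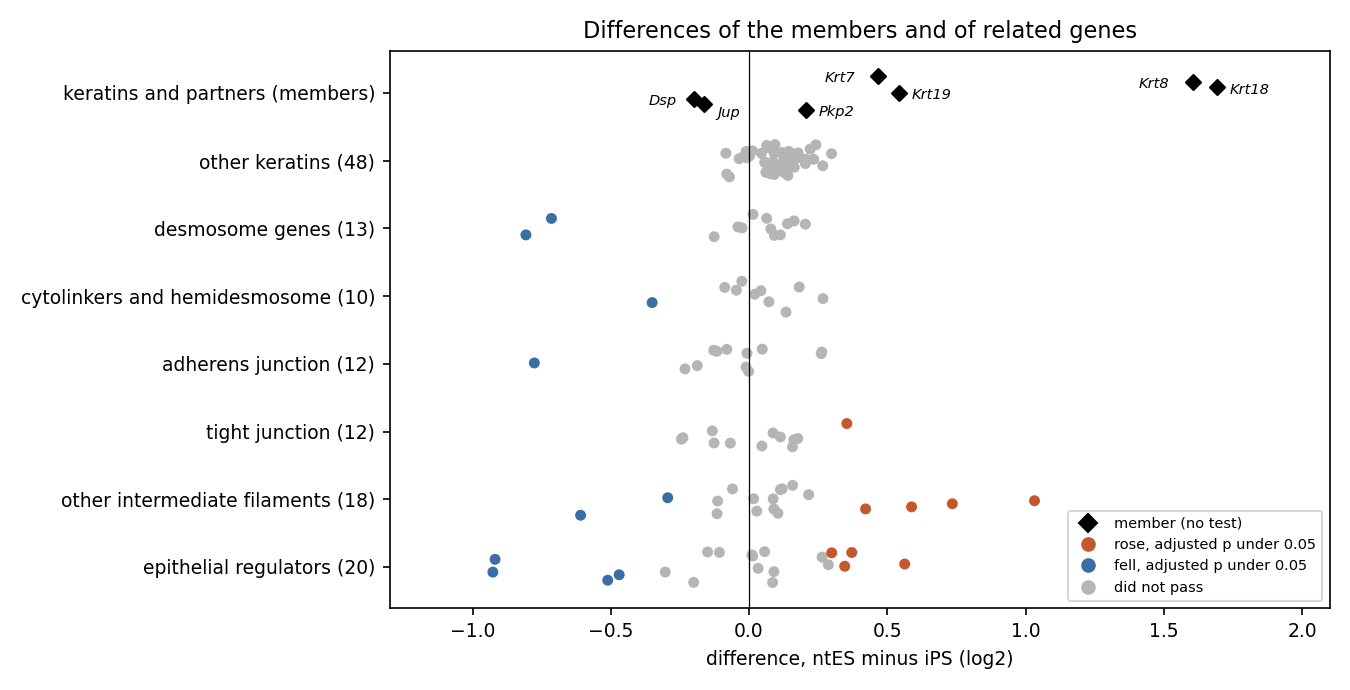
Difference between ntES and iPS cells (log2, horizontal axis) of the 7 members (diamonds, no test) and of each measured gene in 7 lists of related genes (circles; the number measured is in brackets), coloured by limma's adjusted p over all probe sets; vertical scatter within a row has no meaning. No circle of the 48 other keratins is coloured, and their range, -0.08 to 0.30, ends below the keratins among the members.

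Of 13 other desmosome genes measured, 2 fell and none rose (no gene higher and 2 lower at an unadjusted p under 0.05), with a median of 0.06. Of all 19308 genes, 5.25% rose and 6.16% fell. In this list 9 genes read below the median probe set, where a change is harder to see. Without the dim probe sets 4 were left, of which 2 fell and none rose, with a median of -0.42. Dsg2, the desmosomal cadherin of simple epithelia, read 9.46, 9.42 and 9.31 in iPS cells and 8.54, 8.71 and 8.80 in ntES cells, a fall of 0.71 ± 0.09 (log2, SE; adjusted p = 0.000972, limma). Perp, a membrane protein of desmosomes that p53 can induce, fell by 0.81 ± 0.11 (adjusted p = 0.00144). With array weights 6 desmosome genes rose and 3 fell, and without ntES replicate 3, 1 rose and 2 fell. The groups did not overlap for Dsg2 or Perp. Both stayed called under all 15 alternatives run for them, with an adjusted p of at most 0.0119 for Dsg2 and 0.0165 for Perp. The 4 keratins among the members were thus higher in ntES cells and the desmosome genes Dsg2 and Perp lower. The other 11 desmosome genes, most of them dim, were not called.

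Of 10 cytolinkers and hemidesmosome genes, which tie keratin filaments to other structures, 1 fell and none rose (1 lower and 1 higher at an unadjusted p under 0.05), with a median of 0.03. Of all 19308 genes, 5.25% rose and 6.16% fell, the shares to set beside this list and the next. Cd151, a tetraspanin of hemidesmosomes, fell by 0.35 ± 0.10 (adjusted p = 0.0493). The call was lost on leaving out any 1 iPS array, ntES replicate 1, ntES replicate 2 or the 2 arrays of narrowest spread, and with the replicate block (adjusted p between 0.0646 and 0.225). With array weights 3 genes of this list rose and 1 fell, and 1 rose after quantile normalization or without ntES replicate 1 or 3. Of 12 adherens junction genes, 1 fell and none rose (1 lower and 2 higher at an unadjusted p under 0.05), with a median of -0.05. Cdh3 (P-cadherin) read 9.68, 9.58 and 9.36 in iPS cells and 8.60, 8.80 and 8.89 in ntES cells and fell by 0.78 ± 0.11 (adjusted p = 0.00142), under all alternatives run. With array weights 2 adherens junction genes rose and 5 fell, and after quantile normalization 2 rose and 2 fell. Cdh1 (E-cadherin), the main cadherin of pluripotent cells and epithelia, differed by -0.23 ± 0.12 and did not pass (adjusted p = 0.275). It was named after its value was seen.

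Of 12 tight junction genes, 1 rose and none fell (1 and none at an unadjusted p under 0.05), with a median of 0.07. Of all 19308 genes, 5.25% rose and 6.16% fell. Occludin (Ocln) rose by 0.35 ± 0.09 (adjusted p = 0.0331), but did not pass after median centring or quantile normalization, with the replicate block, or on leaving out any 1 iPS array or ntES replicate 2 (adjusted p between 0.0559 and 0.198). The claudins Cldn3, Cldn4, Cldn6 and Cldn7 differed by 0.16, -0.24, 0.09 and 0.18, and Epcam by 0.11. None of these 5, named after their values were seen, passed. After quantile normalization 1 tight junction gene rose and 4 fell, and without ntES replicate 3, 1 rose and 2 fell. At this test, Ocln was the single junction gene of the list called in the direction of the keratins.

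Of 18 other intermediate filament genes, 4 rose and 2 fell (4 higher and 2 lower at an unadjusted p under 0.05), with a median of 0.10. Over all genes, 5.25% rose and 6.16% fell. Sync (syncoilin), a muscle filament protein, read 8.13, 8.07 and 8.13 in iPS cells and 9.03, 9.11 and 9.27 in ntES cells and rose by 1.03 ± 0.09 (adjusted p = 8.88e-05). The muscle filament gene Des (desmin) rose by 0.74 ± 0.11 (adjusted p = 0.002) and the neurofilament gene Nefm by 0.59 ± 0.08 (adjusted p = 0.0018). Ina (alpha-internexin), of neuronal filaments, fell by 0.61 ± 0.08 (adjusted p = 0.00121). These 4 stayed called under all alternatives run for them. Nefh rose by 0.42 and Iffo1 fell by 0.29, both named after their values were seen. Nefh did not pass without iPS replicate 1 or ntES replicate 2 (adjusted p 0.0671 at most), and Iffo1 lost its call on leaving out any 1 iPS array, ntES replicate 2 or the 2 arrays of narrowest spread, and with the replicate block (0.197 at most). With array weights 8 of these filament genes rose and 4 fell, and after quantile normalization 6 rose and 3 fell. Vim (vimentin), the filament gene of mesenchymal cells, differed by 0.10 ± 0.11 (adjusted p = 0.601).

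Of 20 measured regulators of epithelial genes, 4 rose and 4 fell (6 higher and 6 lower at an unadjusted p under 0.05), with a median of 0.02. Over all genes, 5.25% rose and 6.16% fell. Esrp1, an epithelial splicing factor, read 8.31, 8.34 and 8.27 in iPS cells and 7.32, 7.42 and 7.41 in ntES cells and fell by 0.93 ± 0.08 (adjusted p = 7.98e-05). Tfap2c, an AP-2 factor of trophectoderm and germ cells, fell by 0.92 ± 0.10 (adjusted p = 0.000339), and the grainyhead factor Grhl3 by 0.51 ± 0.08 (adjusted p = 0.00361). These 3 stayed called under all alternatives run. Elf3, an ETS factor of epithelial cells, rose by 0.56 ± 0.12 (adjusted p = 0.0112), but lost its call on leaving out iPS replicate 1, iPS replicate 2 or ntES replicate 2 (0.0636 at most).

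The other regulators that passed, named after their values were seen, changed by less. Grhl2, Tfap2a and Fosl1 rose by 0.37, 0.35 and 0.30, and Klf4 fell by 0.47. Each lost its call on leaving out iPS replicate 1, iPS replicate 2 or ntES replicate 2; over all settings that lost it, the adjusted p reached 0.103 for Grhl2, 0.0978 for Tfap2a, 0.188 for Fosl1 and 0.0867 for Klf4. Tfap2a and Fosl1 also lost it without iPS replicate 3, Tfap2a without the 2 arrays of narrowest spread, Fosl1 after median centring, and Grhl2, Tfap2a and Fosl1 with the replicate block. Grhl2 and Tfap2a read below the median probe set. Without the dim probe sets 14 regulators were left, of which 2 rose and 4 fell, with a median of -0.13. Factors that are known to act on epithelial genes thus lay on both sides of 0 in cells where Krt8 and Krt18 were higher.

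The 5 measured genes on each side of each member, the Krt8 and Krt18 pair taken as 1, gave 57 different genes, of which 2 rose and 1 fell, where 5.25% of all genes rose and 6.16% fell. Around Krt8 and Krt18 on chromosome 15 none of 10 passed by limma (and none had an unadjusted p under 0.05), and their differences ran from -0.01 to 0.16. Around Krt19 on chromosome 11, where all 10 neighbours were keratins, none passed (2 had an unadjusted p under 0.05), with differences from -0.08 to 0.27. All of these but Krt42 read below the median probe set, where a change is harder to see. So did the keratins before Krt8 in gene order, and Tns2 and Igfbp6 after Krt18. Around Krt7 and Dsp none of 10 each passed (3 and 1 had an unadjusted p under 0.05). Among the 5 measured genes after Pkp2 on chromosome 16, Fgd4, a regulator of the small GTPase Cdc42, rose by 0.60 ± 0.09 (adjusted p = 0.00232). Next to Jup, P3h4 rose by 0.35 and Hap1 fell by 0.31. Neither passed without iPS replicate 1, 2 or 3, without ntES replicate 2, or with the replicate block (adjusted p at most 0.213 and 0.206). P3h4 also lost its call without ntES replicate 3 or after median centring, and Hap1 without ntES replicate 1 or the 2 arrays of narrowest spread. These 3 neighbours were named after their values were seen.

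**Figure D4:**
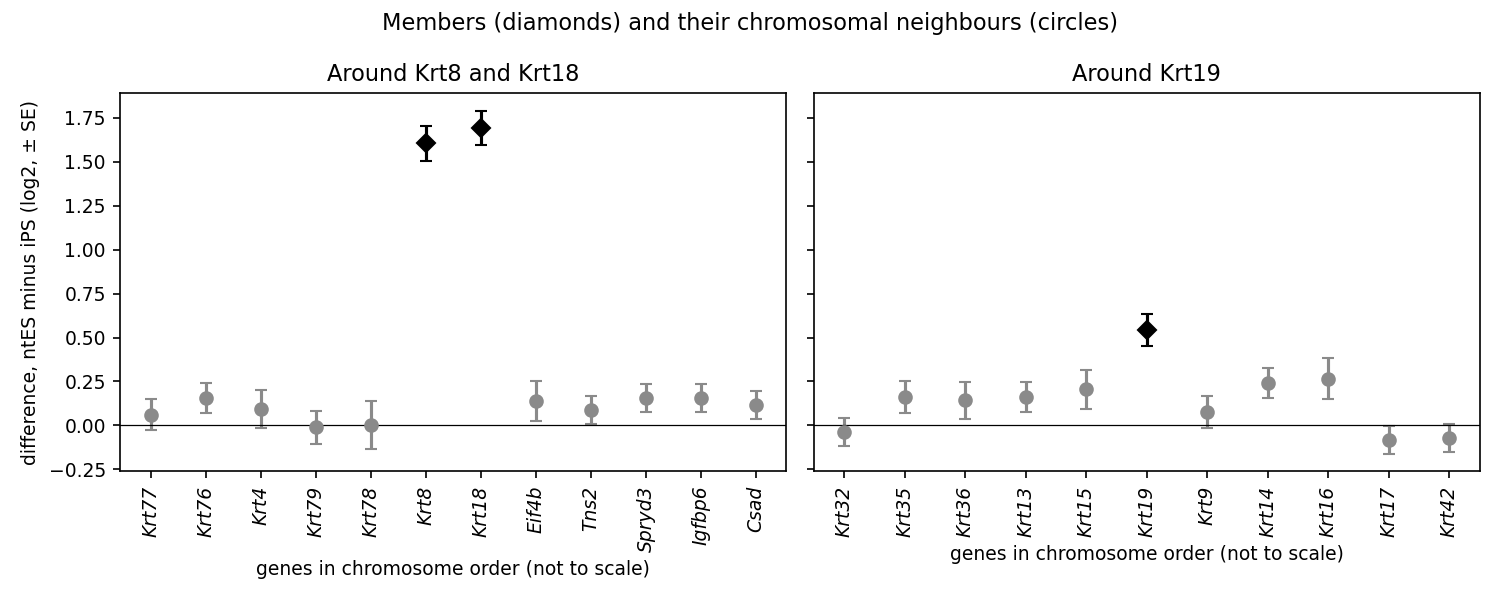
Difference between ntES and iPS cells (log2 ± SE, vertical axis) of Krt8, Krt18 and Krt19 (black diamonds) and of the 5 measured genes on each side in chromosome order (grey circles). The neighbours of Krt8 and Krt18 lie between -0.01 and 0.16 and those of Krt19 between -0.08 and 0.27, below the 1.60, 1.69 and 0.54 of the members. Most of the neighbours read below the median probe set, where a change is harder to see.

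Markers of other cell types that express these keratins, or that share the cultures, were read beside the members. In RNA from whole cultures, more cells of a type and more RNA per cell cannot be told apart. Of 11 trophectoderm markers without the members, 3 rose and 2 fell (4 higher and 2 lower at an unadjusted p under 0.05). Of these markers 8 lay above 0 and the median difference was 0.15. Over all genes, 5.25% rose and 6.16% fell. Eomes, a T-box factor of trophoblast stem cells, read 9.04, 9.09 and 8.87 in iPS cells and 7.71, 7.98 and 7.98 in ntES cells and fell by 1.11 ± 0.10 (adjusted p = 0.000132), and Tead4 fell by 0.39 ± 0.09 (adjusted p = 0.015). Ascl2 rose by 0.69 ± 0.10 (adjusted p = 0.00135) and Plac1 by 0.35 ± 0.09 (adjusted p = 0.0377); Gata3, named after its value was seen, rose by 0.32. Tead4, Plac1 and Gata3 lost their calls on leaving out iPS replicate 1, iPS replicate 2 or ntES replicate 2, Plac1 and Gata3 also without iPS replicate 3, with the replicate block or after median centring, and Plac1 without ntES replicate 1 (adjusted p at most 0.0934, 0.184 and 0.155). The defining factor Cdx2 read 6.90 in both groups, below the median probe set (difference 0.00 ± 0.09, adjusted p = 0.998). The log2 of the summed linear values of these markers was 11.15 to 11.16 on iPS arrays and 10.98 on ntES arrays. That sum is lower in ntES cells although the median difference is above 0; it weights bright probe sets most, and Eomes and Tead4 were the markers of this list above the median probe set, the other 9 lying below it.

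Of 18 primitive endoderm markers, 6 rose and none fell (11 higher and 1 lower at an unadjusted p under 0.05), among them Col4a1 by 0.44 ± 0.08, Pth1r by 0.44 ± 0.09, Gata6 by 0.32 ± 0.08 and Col4a2 by 0.32 ± 0.08 (adjusted p 0.00466, 0.01, 0.0347 and 0.0301). Of these markers 14 lay above 0 and 4 below, with a median of 0.28. Over all genes, 5.25% rose and 6.16% fell. The summed level was 13.35 to 13.55 on iPS arrays and 13.57 to 13.84 on ntES arrays. That sum weights bright probe sets most, and the brightest, Sparc, Lamc1 and Lamb1, did not pass (adjusted p 0.151, 0.0746 and 0.0858, limma). These 3 were named after their values were seen. Without iPS replicate 1 or 2 or ntES replicate 2, 1 marker rose; after median centring 2 rose and 1 fell; and after quantile normalization 11 rose and 1 fell. The defining factor Gata6 read 8.10 in iPS cells and 8.43 in ntES cells, and Gata4 rose by 0.31 ± 0.08 (adjusted p = 0.0401). Of the markers named, Col4a1 kept its call in every alternative run.

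Of 11 markers of pluripotent cells, 2 fell and none rose (3 lower and 1 higher at an unadjusted p under 0.05), with a median of -0.17. Over all genes, 5.25% rose and 6.16% fell. Esrrb, a nuclear receptor of the naive pluripotency network, fell by 0.79 ± 0.11 (adjusted p = 0.00135) and kept its call in every alternative run. Zfp42 (Rex1) fell by 0.49 ± 0.11 (adjusted p = 0.0185) and lost its call on leaving out iPS replicate 1, iPS replicate 2 or ntES replicate 2 (0.11 at most). With array weights or after quantile normalization 3 rose and 7 fell, and without ntES replicate 3, 4 fell.

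Of 17 fibroblast markers, which the feeders carry, 7 rose and 1 fell, 15 lay above 0 and the median was 0.29. Over all genes, 5.25% rose and 6.16% fell. Timp3, Ccn2, Postn and Ccn1 were up by 0.89, 0.77, 0.74 and 0.63 (adjusted p 0.00164, 0.00173, 0.00469 and 0.00447, limma). The 9 that did not pass included Lum, Prrx1, Dcn, Pdgfrb and Twist2, at 0.29, 0.21, 0.16, 0.08 and -0.18 (adjusted p 0.246 to 0.733). These were named after their values were seen. Thy1, named after its value was seen, fell by 0.60. Without iPS replicate 2 or 3 or ntES replicate 2, 4 rose. The summed level, which weights bright probe sets most, was 14.53 to 14.85 on iPS arrays and 14.90 to 15.28 on ntES arrays. Col1a1, the defining collagen, read 10.97 in iPS and 11.43 in ntES cells. Of 8 keratinocyte markers none passed (1 higher at an unadjusted p under 0.05), and all 8, Krt5 and Krt14 included, read below the median probe set. Without ntES replicate 3, 1 passed as higher, and with array weights 4 did. The part of endoderm-like, trophoblast or feeder cells in the differences of the members was not tested.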

How the data were processed

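The deposited table holds log2 expression values, 1 per probe set and array; the scale was read from the values, and per the labels' protocols total RNA taken with Trizol was labelled with a WT Terminal Labeling Kit. GCOS 1.4 is named in the submitters' processing notes, while background correction, summary and normalization are not given in the sources used. Groups came from sample titles. The deposited log2 values were fitted as they are with limma 3.58.1 (lmFit, eBayes) in R 4.3.3 on all 23344 probe sets, without covariates; p-values were adjusted by Benjamini-Hochberg, and called means an adjusted p under 0.05. The fit was tested on simulated data. SE is limma's standard error of the difference, SD is over 3 arrays, and p-values measure the spread between these arrays. A gene of a list was represented by its brightest probe set of 1 symbol.

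The members and the 12 lists were chosen with earlier results of these data known. The lists take the keratins by symbol and the desmosome, cytolinker, junction, filament, regulator and cell type marker genes by name. Genes named were the members; of each list up to 4 called genes of largest change, or the 2 of smallest p; defining markers; neighbours with a 2-fold change; and the 5 genes most like Krt8 and Krt18. Others are said to be named after their values were seen. Names come from the platform annotation, gene order and promoters from RefSeq (GRCm38.p6). Protein sequences were not used here. The number of arrays limits the precision.

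Same-numbered arrays of the groups did not deviate together, so the numbers were not taken as pairs. The fit was repeated after median centring of arrays and after quantile normalization; on probe sets that were not dim, and on those with 1 symbol; with array weights, a replicate block, or robust priors that follow a variance trend; at a threshold of 0.01; with the mean of a gene's probe sets; and without each array in turn. Leaving out the 2 arrays of narrowest spread, iPS replicate 3 and ntES replicate 1, was chosen after seeing the data. Python 3.11.15 was used for counts and figures.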

Additional observations from a re-analysis of the deposited data

How the results depend on the processing

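The differences of all 7 members kept their sign under every alternative run. They moved by less than the pooled SD between replicates in each, except for Dsp with array weights, at -0.11. Those weights put 10.9 on ntES replicate 2 and under 0.5 on iPS replicate 3 and on ntES replicates 1 and 3. Leaving out 1 array at a time gave 1.498 to 1.688 for Krt8, 1.596 to 1.778 for Krt18, 0.47 to 0.62 for Krt19, 0.38 to 0.54 for Krt7, -0.24 to -0.16 for Dsp, -0.25 to -0.06 for Jup and 0.13 to 0.30 for Pkp2. Without the 2 arrays of narrowest spread Krt8 and Krt18 differed by 1.69 and 1.78.

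The count of called probe sets, 2643, was 7035 after quantile normalization, 13147 with array weights, 1150 at an adjusted p under 0.01, and 1014 to 5044 without 1 array (the lowest without ntES replicate 2, the highest without ntES replicate 3, and 1134 and 1042 without iPS replicates 1 and 2). Of 193 measured list genes, 40 were called, and 72 after quantile normalization, 135 with array weights and 19 to 53 without 1 array (22, 20 and 19 without iPS replicate 1, iPS replicate 2 and ntES replicate 2). Median centring turned 25 higher and 15 lower list genes into 15 and 16. The cause of these changes was not tested.

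Deviations of same-numbered arrays correlated at -0.43, -0.10 and -0.72, so they share only a number. The replicate block gave 1983 called probe sets and 27 called list genes, and no array correlated best with its own number. Without the dim probe sets no keratinocyte marker was left to test.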
